A study of Mus musculus with 6 samples.

Results

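The cytosolic ribosomal proteins are the proteins that, together with ribosomal RNA, build the large and the small subunit of the ribosome. They were examined here in primary dermal fibroblasts with and without added endothelin 1 (Et1), a secreted peptide that acts on G-protein-coupled receptors. The members were all probe sets of the array with exactly 1 annotated gene symbol of the form Rpl or Rps followed by a number (an ending in a, l, x or y was allowed), and those of Rplp0, Rplp1, Rplp2 and Rpsa. This gave 100 probe sets, of 45037 in all, for 46 genes, of 18193 with a probe set of their own symbol. The large subunit was represented by 24 genes and the small subunit by 22. Each gene was represented by its probe set with the highest mean signal over the 6 arrays. The rule used gene symbols and brightness only, and no difference between the groups.

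The fibroblasts were grown out of skin explants of newborn B6 pups of mixed sex, aged 0 to 2 days by the sample labels (0 to 3 in the series' description), and were used at passage 6. Control cultures (3 arrays) received no addition, and Et1 cultures (3 arrays) received 100 nM synthetic Et1 peptide for 24 hours. The arrays are called biological replicates, and the animals behind them are not named, so p-values measure the spread between these arrays. RNA was measured on Affymetrix Mouse430_2 arrays, and every signal below is a linear MAS5 value after scaling of the arrays to a common trimmed mean.

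Ribosomal protein messages are among the most abundant in growing cells, and their proteins are made in equal numbers for assembly in the nucleolus. Many of these messages begin with a stretch of pyrimidines, the terminal oligopyrimidine tract, through which the mTOR pathway controls how strongly they are translated. Such control acts on ribosome loading, which an RNA level does not measure. Several ribosomal protein genes have copies elsewhere in the genome, some of them transcribed and many of them pseudogenes, so a probe set can take up signal from more than 1 source.

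The cultures had the markers of the labelled cell type. Of 9 dermal fibroblast markers, 8 were above the median signal and Lum was not. These markers were lower in the mean log2 signal of the Et1 cultures for 7 of the 8, with a median log2 difference of -0.71. Of the 8, 0 passed the threshold of the limma test and 3 had an unadjusted p under 0.05, against 0.346% and 12.3% of all tested probe sets. The 3 were Pdgfrb, a growth factor receptor, at -1.14 (limma adjusted p = 0.0615), Col3a1, a fibrillar collagen, at -1.26 and the surface protein Thy1 at -1.18. In Pdgfrb alone all Et1 arrays were below all control arrays. Vim, an intermediate filament protein, was the marker that was not lower, at 0.02. The summed signals of the 9 markers were 20592 to 34699 on control and 14701 to 26557 on Et1 arrays. The summed signals of 7 keratinocyte markers ranged from 330 to 526 (control) and from 381 to 469 (Et1), and 3 of the 7, Krt15 and Krt1 among them, were below the filter. Those of 6 macrophage and leukocyte markers were 364 to 461 and 375 to 461. The sums for 5 endothelial markers were 95.5 to 123 and 118 to 206, and for 6 melanocyte markers 193 to 267 and 260 to 296. The sums for 4 muscle markers were 190 to 230 and 131 to 208, and for 2 nerve markers 175 to 191 and 109 to 131. The part of these in the results on ribosomal proteins was not tested. In such bulk cultures fewer cells of a type and less RNA per cell cannot be told apart.

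The main comparison asked whether ribosomal protein messages differed between Et1 and control cultures. No ribosomal protein gene passed the threshold. Of the 46 genes, 44 were tested, those with a mean signal at or above the array-wide median of 41.0. Of these, 41 had a higher mean log2 signal in Et1 cultures and 3 a lower one, where 54.1% of all 22519 tested probe sets had a higher mean. The median log2 difference was 0.16, a fold of 1.12, against a median of 0.03 over all tested probe sets, and 50% of the genes lay between 0.12 and 0.24. The test was limma with Benjamini-Hochberg adjustment over all tested probe sets, at a threshold of 0.05. It called 0 of the 44 genes, where it called 0.346% of all tested probe sets (0.0977% higher and 0.249% lower), and the smallest adjusted p was 0.182. At an unadjusted p under 0.05 there were 2 of 44, both higher, against 12.3% of all tested probe sets in either direction and 5.94% higher. The Et1 signals lay wholly above the control signals for 2 of 44 genes, against 9.47% of all tested probe sets, and wholly below for 0 of 44, against 8.11% (17.6% in either direction). The shares called, with an unadjusted p under 0.05 or without overlap were thus not above those of the whole array, while the share with a higher mean was.

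The small size of the shift was measured with fair precision for most genes. Standard errors ran from 0.11 to 0.95 on the log2 scale, with a median of 0.15. For 41 of the 44 genes the 95% interval of the difference lay within a 2-fold change in either direction, and the 3 others were Rps4l, Rpl27a and Rpl41. For 42 of 44 the interval included 0. A rise of about the size of the median difference is thus within the error of nearly every single gene.

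The shift was uneven over the Et1 arrays. On Et1 replicate 1, 42 of the 44 genes were above their control mean, on Et1 replicate 2 it was 39, and on Et1 replicate 3 it was 21. The control arrays had 7, 25 and 29 genes above that mean. Et1 replicate 1 was the highest of all arrays for 33 of the 44 genes, and Et1 replicate 3 was the lowest Et1 array for 32. Without Et1 replicate 1 the median log2 difference was 0.07 for the large and 0.04 for the small subunit, and without Et1 replicate 3 it was 0.31 and 0.22.

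**Figure D1:**
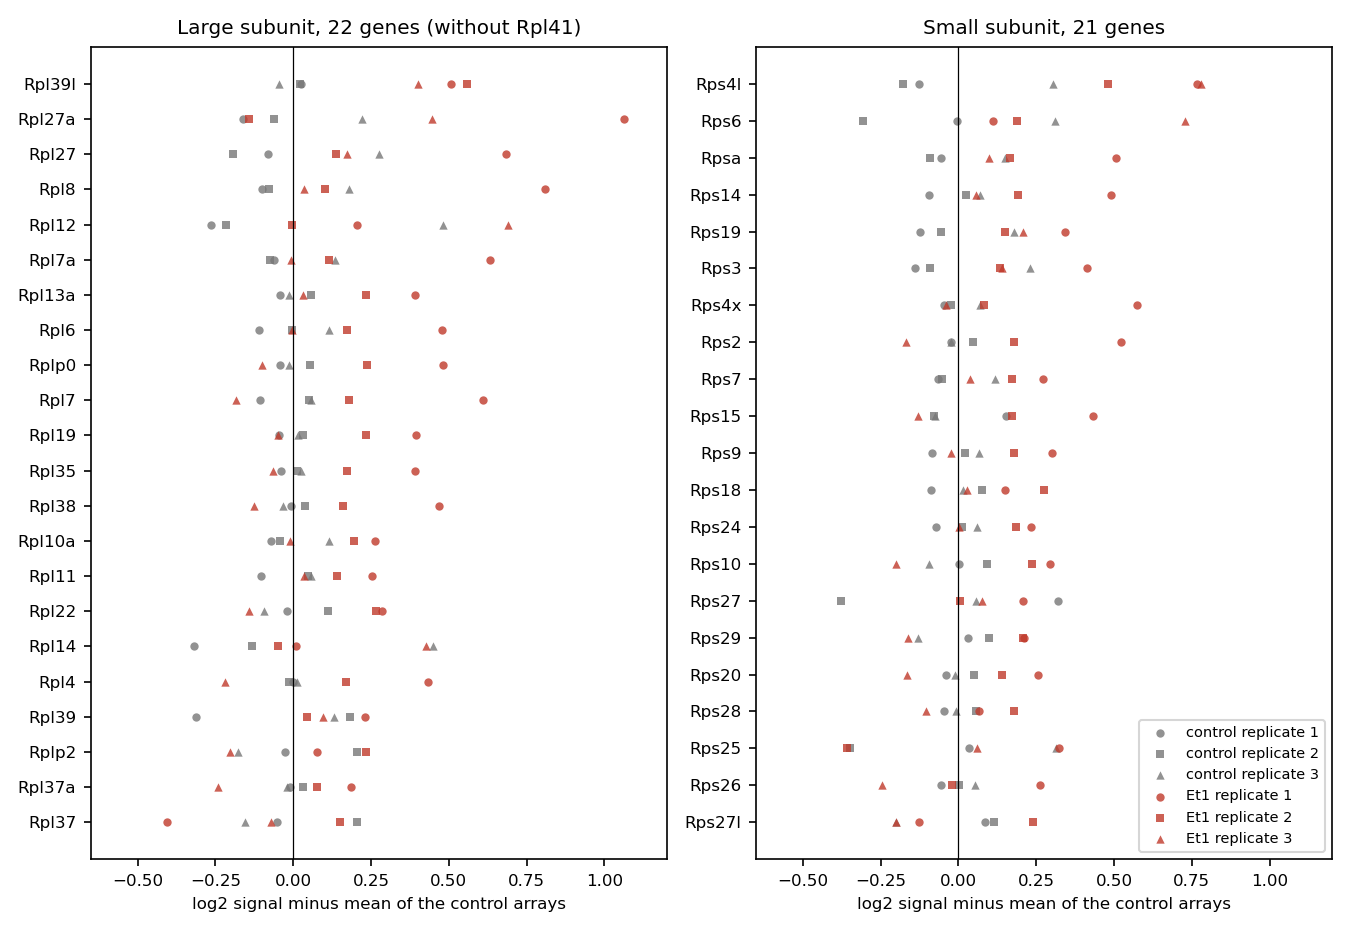
Log2 signal of each tested ribosomal protein gene on each array minus the mean of its 3 control arrays, in order of the Et1 difference, with the large subunit on the left and the small subunit on the right. Grey symbols are control and red symbols Et1 arrays, circles are replicate 1, squares replicate 2 and triangles replicate 3; Rpl41, with control replicate 1 far below the other arrays, is not drawn. The red circles lie farthest to the right for most genes, and the red triangles are the leftmost of the red symbols for most genes.

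Array-wide measures also differed between Et1 replicates 1 and 3. The trimmed mean of the deposited signals was 91.7 on Et1 replicate 1, the lowest, and 179 on Et1 replicate 3, the highest. It was 129 on Et1 replicate 2 and 148, 135 and 166 on control replicates 1, 2 and 3. Of the 46 genes, 34 had signals in the top 1% of the array, at or above 3000.2. Before scaling, the median over the 35 genes with a mean of at least 1000 was 5502 on Et1 replicate 1, also the lowest of the 6 arrays, and 8043 on Et1 replicate 3, the highest; after scaling, these were 8307 and 6221. The array's control probe set for the 3' end of Actb read 11437 on Et1 replicate 1 and 7450 on Et1 replicate 3, against 8141 to 9254 on control arrays. The one for Gapdh read 6421 and 4741, against 5415 to 6307. On Et1 replicate 2 the probe sets for Actb and Gapdh read 9670 and 6319. A further set was 306 other probe sets in the top 1% of signals, those without Rpl or Rps in a symbol. Fau, a ribosomal protein outside the naming rule, is among them. The median deviation of the 306 from control was 0.15 on Et1 replicate 1, 0.08 on Et1 replicate 2 and -0.10 on Et1 replicate 3. Of the 306, 57.8% had a higher mean in Et1 cultures, with a median log2 difference of 0.05. With quantile normalization in place of scaling, 32 in place of 41 of the 44 ribosomal protein genes had a higher mean, with medians of 0.07 for the large and 0.02 for the small subunit. With cyclic loess, a smooth fit over the levels of all probe sets, there were 40 and the medians were 0.16 and 0.13. How far that fit removes differences at the level of these bright genes was not tested. The part of array level in the shift was not tested further.

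Large and small subunit genes did not separate. Of 23 tested large subunit genes 22 had higher means, with a median log2 difference of 0.19 (fold 1.14), and of 21 tested small subunit genes 19 had higher means, with a median of 0.15 (fold 1.11). The difference of the medians, large minus small, was 0.04. The median deviation of the large subunit genes from their control means was -0.06, 0.03 and 0.06 on control replicates 1, 2 and 3, and 0.40, 0.17 and -0.01 on Et1 replicates 1, 2 and 3. For the small subunit it was -0.05, 0.00 and 0.06 on the control arrays and 0.30, 0.18 and 0.00 on the Et1 arrays. The subunits thus followed each other from array to array. Large minus small within each array was 0.00 ± 0.02 in control and 0.03 ± 0.06 in Et1 arrays (SD, n = 3), and 0.10 on Et1 replicate 1 was its highest value. No test was made on these medians, since they are scores over chosen members.

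**Figure D2:**
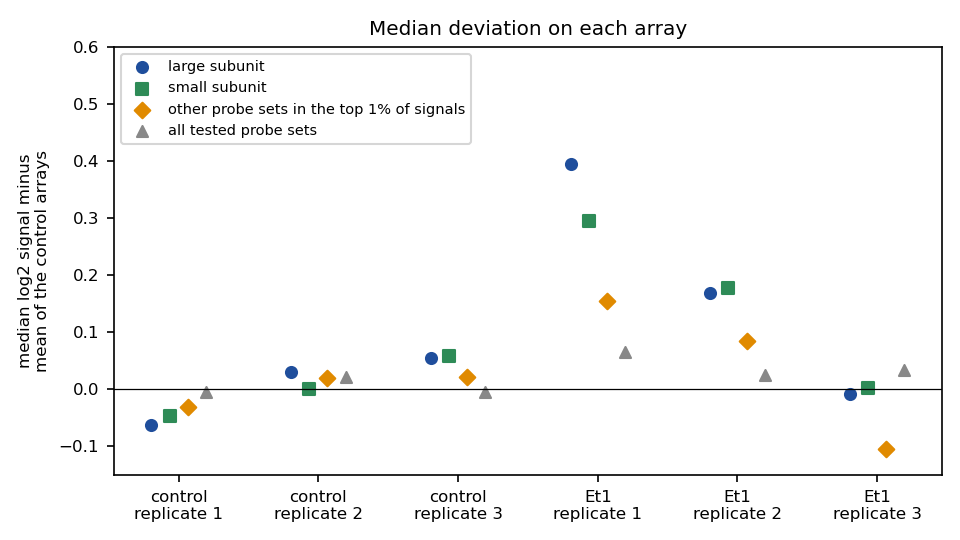
Median log2 deviation from the control mean on each array (vertical axis) for large subunit genes (blue circles), small subunit genes (green squares), 306 other probe sets in the top 1% of signals (orange diamonds) and all tested probe sets (grey triangles). The large and small subunit lie at 0.40 and 0.30 on Et1 replicate 1, at 0.17 and 0.18 on Et1 replicate 2 and near 0 on Et1 replicate 3.

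The arrays were also split into sets at the largest gap in the mean log2 signal of bacterial spike-in probe sets, not by a label. This signal was low on control replicates 1 and 2 and Et1 replicate 2, at 3.46, 3.45 and 3.57. It was high on control replicate 3 and Et1 replicates 1 and 3, at 5.64, 5.43 and 4.75. Within the low set the median log2 difference was 0.19 for the large and 0.19 for the small subunit, with 42 of 44 genes higher. Within the high set it was 0.14 and 0.08, with 37 of 44 higher. The low set compares Et1 replicate 2 alone with control replicates 1 and 2. The high set compares Et1 replicates 1 and 3 with control replicate 3 alone. For Et1 replicate 3 against control replicate 3 the medians were -0.09 and -0.06, with 10 of 44 higher. Blocking on the set, limma called 2 of the 44 genes, both higher, where 1.39% of all tested probe sets were called higher, 2.47% lower and 3.85% in either direction.

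These genes were Rps4l and Rpl39l, copies of other ribosomal protein genes. Rps4l resembles Rps4x, which encodes a small subunit protein from the X chromosome, and Rpl39l is a copy of Rpl39 that is known for its expression in testis. They had the smallest p-values among the 44 genes also without a block, and were the 2 genes whose groups did not overlap.

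The signals of Rps4l were 315, 305 and 425 on control replicates 1, 2 and 3, and 586, 481 and 591 on Et1 replicates 1, 2 and 3. All Et1 arrays were above all control arrays, and control replicate 3 was the nearest to them. The log2 difference was 0.68 (SE 0.18, 95% interval 0.26 to 1.09, limma adjusted p = 0.182). Blocking on the spike-in set, it was 0.55 (limma adjusted p = 0.0218), and it was 0.63 within the low and 0.47 within the high set.

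The signals of Rpl39l were 526, 524 and 501 on control and 734, 760 and 682 on Et1 arrays. The groups stood apart, and the spread within each was small. The log2 difference was 0.49 (SE 0.13, 95% interval 0.18 to 0.79, limma adjusted p = 0.192). Blocking on the spike-in set, it was 0.52 (limma adjusted p = 0.0221), with 0.53 within the low and 0.50 within the high set. As the lack of overlap requires, both genes were above all control arrays also on Et1 replicate 3, where the median of the members was near the control mean.

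The genes they resemble overlapped between the groups. Rps4x read 6439, 6545 and 6987 on control and 9904, 7041 and 6475 on Et1 arrays, a log2 difference of 0.21. Rpl39 read 210, 296 and 285 on control and 306, 269 and 279 on Et1 arrays, a difference of 0.12. Its probe set was dim, and probe sets naming Rpl39 with other genes were not used. The log2 ratio of copy to parent, Et1 minus control, was 0.47 for Rps4l over Rps4x and 0.36 for Rpl39l over Rpl39, with ranges that overlapped between the groups. In a two-sided exact permutation test over the 6 arrays, whose smallest possible p is 0.10, these gave p = 0.20 and p = 0.30, both 0.45 after adjustment over 3 pairs. With 3 arrays a group this test cannot reach 0.05, so it says nothing on whether the copy changed apart from its parent. The third pair was Rps27l, a copy that p53 is known to induce, over Rps27, with -0.12 and p = 0.50 (exact permutation test, 0.50 adjusted). Rps27l itself read 4837, 4927 and 3967 on control and 4177, 5376 and 3964 on Et1 arrays, a log2 difference of -0.03 (95% interval -0.38 to 0.32). Rps27, in a dim probe set, differed by 0.10.

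**Figure D3:**
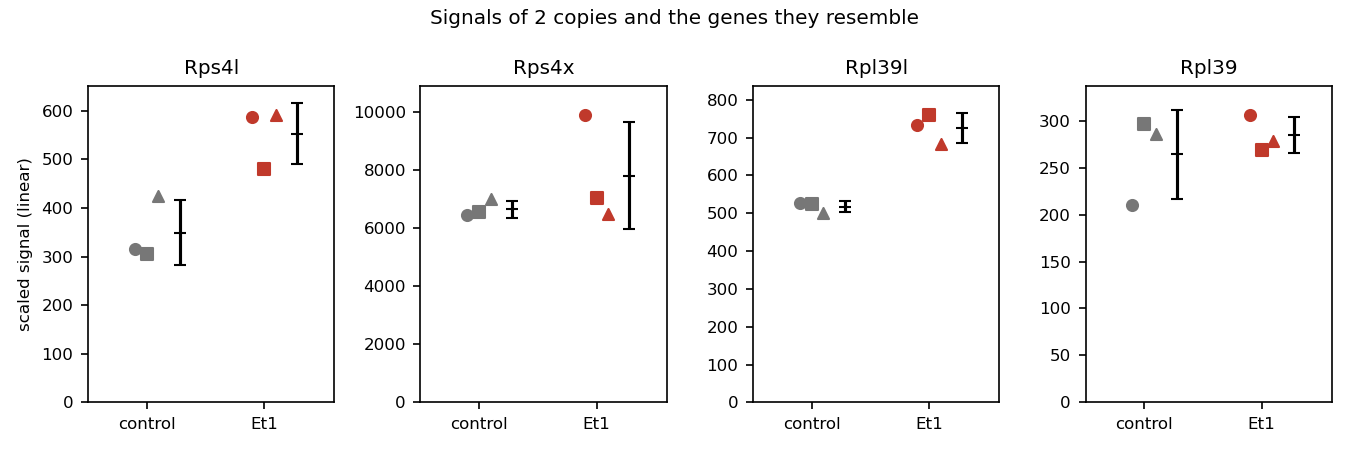
Scaled linear signals of Rps4l, Rps4x, Rpl39l and Rpl39 on control (grey) and Et1 (red) arrays, with circles, squares and triangles for replicates 1, 2 and 3 and black bars for the mean and SD of 3 arrays. Et1 and control arrays do not overlap for Rps4l and Rpl39l and overlap for Rps4x and Rpl39; the vertical axes differ and start at 0.

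To show what the starts of these genes look like, the 30 bases before and the first 20 bases from the annotated start are given here for genes with a pyrimidine tract at the start and for the pair Rpl39 and Rpl39l with Rps4x. The sequences are from RefSeq (GRCm38.p6), 5' to 3' on the strand of the gene, and capitals mark the longest run of C or T that reaches to within 10 bases of the start.
Rplp2, chr7:141447621-141447670, plus strand: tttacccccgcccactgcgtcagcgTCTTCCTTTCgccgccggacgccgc
Rps6, chr4:86857348-86857397, minus strand: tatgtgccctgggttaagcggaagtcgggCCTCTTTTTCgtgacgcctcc
Rps10, chr17:27635225-27635274, minus strand: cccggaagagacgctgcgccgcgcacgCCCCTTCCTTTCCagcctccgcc
Rpl38, chr11:114668550-114668599, plus strand: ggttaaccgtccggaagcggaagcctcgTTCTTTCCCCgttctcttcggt
Rps18, chr17:33955646-33955695, minus strand: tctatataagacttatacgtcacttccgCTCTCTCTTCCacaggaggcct
Rpl39, chrX:37085203-37085252, minus strand: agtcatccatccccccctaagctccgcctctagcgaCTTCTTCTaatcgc
Rpl39l, chr16:10170198-10170247, plus strand: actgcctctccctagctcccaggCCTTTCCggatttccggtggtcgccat
Rps4x, chrX:102189372-102189421, minus strand: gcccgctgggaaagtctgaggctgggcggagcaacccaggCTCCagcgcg

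Of the 46 genes, 40 had an entry in that table, with 48 starts, and Rps4l was among the 6 without. A run of at least 8 bases that were all C or T, on the strand of the gene, was found near 19 of the 48 starts, or 39.6%, against 14.0% of all 32851 starts in the table. It was found for 10 large and 9 small subunit genes. The 19 tested genes with such a run had a median log2 difference of 0.14, and the 19 tested genes without one had 0.21. A run of pyrimidines in this window is a description of the letters, and annotated starts can lie some bases from the true ones.

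Among the genes of the ribosomal stalk, which recruits elongation factors, Rplp0 read 6355, 6795 and 6480 on control and 9128, 7717 and 6096 on Et1 arrays. The highest and the lowest of the 6 signals were both from Et1 arrays. Its log2 difference was 0.21 (95% interval -0.14 to 0.55, limma adjusted p = 0.621). Rplp2 differed by 0.04, with 7986 ± 1074 in control and 8200 ± 1227 in Et1 arrays (SD, n = 3), and its sign turned to -0.07 with quantile normalization. Rplp1 was not analysed here.

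Rpsa, a small subunit protein also known as a laminin receptor precursor, read 5622, 5482 and 6478 on control and 8307, 6558 and 6254 on Et1 arrays, a log2 difference of 0.26 (95% interval -0.06 to 0.58). Rps19, the gene most often altered in Diamond-Blackfan anaemia, read 4848, 5078 and 5982 on control and 6689, 5862 and 6102 on Et1 arrays, a difference of 0.23 (95% interval -0.05 to 0.51, limma adjusted p = 0.491). For both, 1 control array lay inside the range of the Et1 arrays.

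Rpl11, which can bind and restrain Mdm2 when ribosome assembly fails, read 5009, 5568 and 5600 on control and 6413, 5930 and 5518 on Et1 arrays, a log2 difference of 0.14. Rps6, a substrate of kinases downstream of mTOR, was represented by a dim probe set that read 336, 272 and 418 on control and 364, 384 and 558 on Et1 arrays, a difference of 0.34 (95% interval -0.17 to 0.86). Rpl22, an RNA-binding protein of the large subunit, differed by 0.14. None of these groups stood apart. Rpl5 and Rps27a were not analysed here.

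The 4 probe sets with the highest signals were those of Rps29, Rpl13a, Rps20 and Rps10, with means over the 6 arrays of 8449 to 9404. Their log2 differences were 0.09, 0.22, 0.08 and 0.11. Of them Rpl13a, which also takes part in translational silencing in macrophages, read 7954 ± 286 (control) and 9295 ± 1144 (Et1) (SD, n = 3), and was higher than the control mean on all 3 Et1 arrays. The signs of Rps29, Rps20 and Rps10 turned with quantile normalization, to -0.08, -0.06 and -0.04.

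Among the probe sets that represent a gene, the dimmest tested were those of Rps27, Rpl27a, Rpl12 and Rpl14, with means of 113 to 212. Rpl27a, at 0.46, read 151, 162 and 197 on control and 353, 153 and 230 on Et1 arrays, so that Et1 replicate 2 lay within the control range. Rpl12, at 0.30, and Rpl14, at 0.13, read highest on replicate 3 within each group. Rps16 and Rpl3l, a copy of Rpl3 known from muscle, were too dim to be tested, reaching at most 4.68 and 23.6. All of these were single-symbol probe sets, and their signals are no measure of the amount of the message: 110 probe sets that name a ribosomal protein gene beside other genes, often pseudogenes, were left out by the rule.

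The 3 genes with a lower mean log2 signal in Et1 cultures were Rpl37, Rps27l and Rps26, at -0.11, -0.03 and -0.00. For Rps26 the mean of the linear signals was the other way, 5025 in control and 5067 in Et1 arrays. Rpl37 read 2019, 2412 and 1878 on control and 1577, 2323 and 1988 on Et1 arrays. Its lowest value was on Et1 replicate 1, the array on which most members were highest, and without that array its difference was 0.04. Rps26, which read 4833, 5027 and 5214 on control and 6018, 4946 and 4237 on Et1 arrays, and Rps27l also overlapped between the groups.

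The largest difference of all 44, 1.48 for Rpl41, rested on 1 array. Its probe set read 450 on control replicate 1 against 8183 and 7455 on the other control arrays, and 10170, 8962 and 6491 on the Et1 arrays. Without control replicate 1 the log2 difference was 0.10. Another bright probe set of Rpl41 read 4596, 4797 and 4044 on control and 5430, 5710 and 3733 on Et1 arrays, with no such gap.

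Probe sets of the same gene mostly ran together. Of 90 tested probe sets 80 were higher in the mean of the Et1 arrays, the median log2 difference being 0.16, and 0 passed the threshold. Among all tested probe sets 54.1% had a higher mean and 0.346% passed. Of 19 genes with several tested probe sets, 6 had at least 1 of opposite sign to the brightest, all of them of the small subunit, namely Rps3, Rps18, Rps24, Rps10, Rps20 and Rps27l. Among these 6 the widest range was in Rps20, from -0.58 in a dim probe set to 0.18 in a bright one. In Rps10 a probe set at -0.26 read 2874 on Et1 replicate 1 and 5230 to 6516 on the other arrays. Rpl27 had 3 tested probe sets at 0.33, 0.32 and 0.23, and in 2 of them all Et1 arrays were above all control arrays. The 6 probe sets wholly higher in Et1 arrays were of Rpl13a, Rpl22, Rpl27 (2 of them), Rpl39l and Rps4l, and the 1 wholly lower was the dim one of Rps20. These 6 and 1 of 90 stand against 9.47% wholly higher and 8.11% wholly lower among all tested probe sets.

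Genes that work with the ribosomal proteins were taken from lists of translation and ribosome assembly genes. Of 46 tested genes of ribosome assembly and RNA polymerase I, 41 were higher in the mean of the Et1 arrays, and the median log2 difference was 0.28. Of these 0 passed limma's threshold over all tested probe sets, and 10 had an unadjusted p under 0.05, where 0.346% and 12.3% of all tested probe sets did and 54.1% had a higher mean. The Et1 arrays were wholly above the control arrays for 15 of the 46, against 9.47%. Blocking on the spike-in set, limma called 4 of the 46, against 3.85% of all tested probe sets. Nop14, which takes part in making the small subunit, read 207 ± 19.0 (control) and 334 ± 5.03 (Et1) (SD, n = 3; 0.69, limma adjusted p = 0.111, or 0.0195 with that block). Polr1c, a subunit shared by RNA polymerases I and III, differed by 0.70 (limma adjusted p = 0.233, or 0.0218 with the block), Ebna1bp2, a large subunit assembly factor, by 0.55, and Nmd3, the export adaptor of the large subunit, by 0.44. With quantile normalization 42 of the 46 were higher, with a median of 0.29, and centred on the median 36.

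Elongation factors and other messages known for a terminal oligopyrimidine tract were also higher in the mean. All 19 tested genes of that list, Vim among them, had higher means, with a median log2 difference of 0.16. A higher mean was found for 54.1% of all tested probe sets. Of the 19, 0 passed limma's threshold and 2 had an unadjusted p under 0.05, against 0.346% and 12.3% of all tested probe sets. Quantile normalization and centring on the median each left 15 of 19 higher, with medians of 0.17 and 0.11, and without Et1 replicate 1 it was 14, with a median of 0.07. Eif3f, a subunit of initiation factor eIF3, read 2795 ± 267 and 3510 ± 199 in control and Et1 arrays, Eef1b2, an exchange factor for elongation factor 1, 5048 ± 20.1 and 6007 ± 433, and Npm1, a nucleolar chaperone, 4623 ± 685 and 5692 ± 659 (SD, n = 3). The limma adjusted p was 0.336, 0.400 and 0.443.

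Of 4 tested ribosomal proteins or copies outside the naming rule, namely Fau, Rps3a1, Rpl22l1 and Rpl7l1, 0 passed, and their log2 differences ran from 0.01 to 0.18. Of 16 tested regulators of ribosomal protein translation and of the p53 response, 9 had higher means, with a median of 0.08. Of the 16, 0 passed and 3 had an unadjusted p under 0.05. Among all tested probe sets 54.1% had a higher mean, 0.346% passed and 12.3% had an unadjusted p under 0.05. Blocking on the spike-in set, 12 had higher means and limma called 2, Eif4ebp1 and Myc (limma adjusted p = 0.0341 and 0.0349). With that block 3.85% of all tested probe sets were called, 1.39% higher. Eif4ebp1, a translation repressor that mTOR inactivates, differed by 0.61 (limma adjusted p = 0.127), Myc, which drives ribosomal genes, by 0.57 (adjusted p = 0.162) and Mdm2, the p53 ligase that free Rpl11 restrains, by 0.40. Deptor, an inhibitor of mTOR, stood at -0.38. The groups did not overlap for 5 of the 16, namely these 4 and Sesn2, a stress-induced inhibitor of mTOR signalling, at 0.37, against 17.6% of all tested probe sets.

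**Figure D4:**
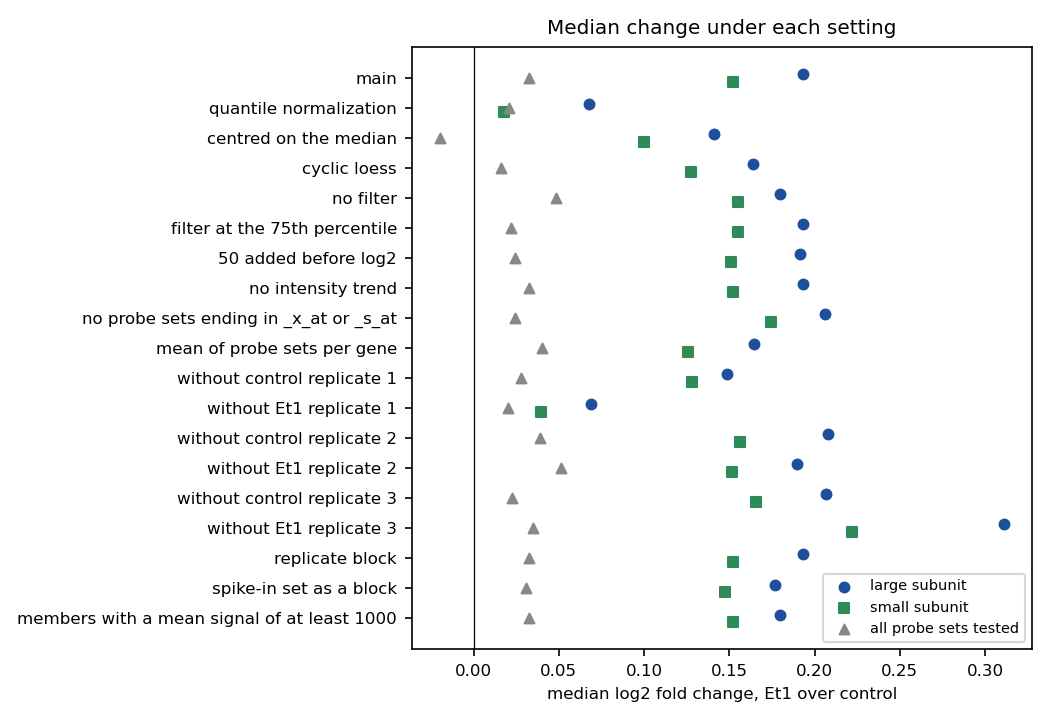
Median log2 fold change, Et1 over control (horizontal axis), of large subunit genes (blue circles), small subunit genes (green squares) and all probe sets tested (grey triangles) in each setting of the processing. The large subunit lay between 0.07 and 0.31 and the small subunit between 0.02 and 0.22; both were lowest with quantile normalization or without Et1 replicate 1, and highest without Et1 replicate 3.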

How the data were processed

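The authors deposited linear intensity signals, one per probe set, which they computed with MAS5 per the submitters' processing notes; the version used and any scaling target were not stated there. Here each array was scaled to a common 2% trimmed mean of 139. Zeros (4 values) took the lowest positive signal of the same array, and log2 was used without adding a constant. Of 45037 probe sets without controls, the 22519 with a mean at or above the median were tested with limma 3.58.1 in R 4.3.3 without a block and with an intensity trend; p-values were adjusted by Benjamini-Hochberg. Precision is limited by the 3 arrays per group and the spread between them. Intensities carry no count of molecules. Genes were named from the platform annotation, and all 46 gene identifiers were found in a table of mouse genes (GRCm38.p6). The fit was tested on simulated data.

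The members, lists and settings were chosen with earlier results of these data known. Genes named in the text were those with an unadjusted p under 0.05, the 4 brightest and 4 dimmest tested, stalk, disease and kinase-target genes, copies ending in l, members below the filter or with probe sets of opposite sign, and at most 4 genes of each other list. Rpl27, Rpl41, Rpl37, Rps26 and Sesn2 were named after their values were seen. A member limit of a mean of at least 1000 was added after seeing the data. Since no label says whether the replicate numbers pair the arrays, the fit was made without pairing, with the number as a block in an alternative. Same-numbered control and Et1 arrays deviated from their group means with correlations of -0.12, 0.44 and 0.45 for numbers 1, 2 and 3. These do not decide on pairing, as the arrays of numbers 2 and 3 also share a spike-in set and those of number 1 do not. Alternatives covered normalization, the filter, a constant before log2, the trend, the choice of probe sets, blocks and leaving out each array.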

Additional observations from a re-analysis of the deposited data

How the results depend on the processing

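Over 18 alternative settings the count of ribosomal protein genes past the limma threshold stayed at 0 in 16. It was 1 with the replicate number as a replicate block (Rps4l, limma adjusted p = 0.0473) and 2 when blocking on the spike-in set. Among the 16, the limit to members with a mean of at least 1000 used the main fit, so its 0 was fixed in advance. With the replicate block 567 of 22519 probe sets were called and with the spike-in block 868, against 78 without a block. The series' description says that cells were divided between both cultures, but no label ties the numbers to this, so whether the numbers pair the arrays is not known. Leaving out each array gave 0 genes past the threshold each time. Of all tested probe sets, limma then called 4, 4 and 229 without control replicates 1, 2 and 3. It called 10, 46 and 6 without Et1 replicates 1, 2 and 3, and 7 with all arrays but no intensity trend. Leaving out each array gave 38 to 41 higher means. The medians were then 0.07 to 0.31 for the large and 0.040 to 0.22 for the small subunit. The difference of large minus small was 0.021 to 0.089. With quantile normalization the small subunit median moved from 0.15 to 0.018. The sign of the log2 difference turned for Rplp2 (-0.074), Rpl22 (-0.0049), Rps29 (-0.081), Rps20 (-0.058) and Rps10 (-0.038) with quantile normalization, for Rplp2 (-0.017) when centred on the median, for Rps20 without probe sets ending in _x_at or _s_at (-0.12) and with the mean of probe sets (-0.11), and for Rps27l (0.088) and Rpl14 (-0.028) when blocking on the spike-in set. Leaving out an array gave ranges across 0 of -0.063 to 0.15 for Rplp2, -0.034 to 0.21 for Rpl39, -0.092 to 0.26 for Rps27, -0.16 to 0.057 for Rps27l, -0.013 to 0.20 for Rps20, -0.030 to 0.35 for Rpl14 and -0.24 to 0.039 for Rpl37. The cause was not tested. The adjusted p ranged over the alternatives from 0.0218 to 0.630 for Rps4l and from 0.0221 to 0.600 for Rpl39l, both higher in each setting. Signals of dim probe sets are sensitive to background, and 3 arrays per group leave changes of the size of the median shift within the error of a single gene.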

Other observations

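The array carries probe sets for mouse 18S ribosomal RNA, the RNA of the small subunit. Their highest scaled signal was 19.7, 8.90 and 100.1 on control replicates 1, 2 and 3, and 149, 12.7 and 85.4 on Et1 replicates 1, 2 and 3. They were low on the arrays with low spike-in signals and higher on the others, with both groups in each set. The ratio of the 3' to the 5' control probe set was 0.677 to 0.775 for Gapdh and 1.15 to 1.23 for Actb over the 6 arrays.

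By replicate number, Et1 minus control, the median log2 difference of the large subunit genes was 0.47, 0.16 and -0.09 for numbers 1, 2 and 3, and that of the small subunit genes 0.30, 0.17 and -0.06. Of the 44 genes, 41, 39 and 10 were higher.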
